A study of Mus musculus with 23 samples.

Results

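The loci described here are 59 mouse genes that encode chromatin regulators, together with the genomic regions bound by NR5A2 that lie closest to them. A bound region was assigned to a gene when the span of that gene was the nearest protein-coding RefSeq span to the region midpoint and lay within 50 kb of it. By this rule 131 of the 16958 listed regions belonged to the set, and they fell at 48 of the 59 genes. No region had a tie for its nearest gene. Nearness is a statement of position, and no gene expression was measured in the table used.

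The study measured chromatin accessibility by ATAC-seq, which reads where a transposase can reach the DNA, in mouse embryos at the 8-cell stage. In the first series, 8 embryos labelled mz_NrHet were compared with 13 embryos labelled mz_NrKO, heterozygotes for Nr5a2 against embryos lacking it from both mother and zygote, all processed ex vivo. In the second, inducible series, embryos were dissected 30 h after hCG, the hormone that triggers ovulation, and cultured for 45 h. The pool labelled iNrKO_plus_Tam_NrKO received 750 nM 4-hydroxytamoxifen for the first 24 h, and the pool labelled iNrKO_minus_Tam_Nrpp did not. Each arm of the inducible series was 1 pool of embryos, and pools given the drug without the inducible allele were not analysed here. The Cre driver, the strain and the maternal genotype of the heterozygotes are not given in the sources used here. The libraries of each series carry a single date label, which differs between the series, so date cannot be told apart from series.

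NR5A2 is a nuclear receptor of the FTZ-F1 family. It contacts DNA as a monomer, at an extended half-site with the core AAGGTCA or AAGGCCA, and acts in the early mouse embryo during activation of the zygotic genome. Chromatin regulators write, remove or read marks on histones and DNA, or move nucleosomes. In the cleavage-stage embryo these enzymes take part in the removal of gamete-specific marks and the setting up of an embryonic pattern of open and closed chromatin.

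The deposited table holds, for each region, the read density RPKM in 4 columns, each merged over the embryos of its group. The RPKM values were whole multiples of 1 step per column, namely 0.587 RPKM per read for heterozygotes and 0.359 for maternal-zygotic knockouts, then 0.163 without and 0.170 with the drug in the inducible series. The step did not vary with the length of the region, so the values were not scaled to that length. The 131 regions held 801, 955, 2242 and 1675 reads in that order, with a median of 4, 5, 15 and 10 reads per region. A count of 0 allows up to 3 reads, or 1.76, 1.08, 0.490 and 0.510 RPKM. The intervals and p-values below cover counting error only and compare merged libraries, because the spread between embryos is not in the merged columns.

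Few of these regions overlapped a listed promoter window, which ran from 250 bases before to 50 after a transcription start. Only 1 of the 131 regions (0.763%) overlapped any RefSeq promoter window, against 481 of all listed regions (2.84%). None overlapped the window of its own gene, but only 104 of the 131 regions had a gene with a window. Kmt2e and Kdm4b were among the genes without one, so an overlap with their own promoters could not be seen. The 1 overlapping region lay inside Kmt2e (chromosome 5, 23433354 to 23433661), a SET-domain protein gene. The window belongs to the neighbouring non-coding gene 5031425E22Rik on the minus strand. The shared 233 bases, mm10 chr5:23433354-23433586, minus strand, are shown because they are the only window sequence that any of these regions covers. They have a GC content of 60.5% and 17 CpG dinucleotides, and hold no match to the motif searched, TCAAGGNCA, or to its looser form CAAGGNCA, on either strand. A region near Riox2, a histone demethylase-family gene from a wider list of chromatin genes, is shown beside it because it holds the motif. It overlaps the window of 1700022E09Rik at mm10 chr16:59469239-59469488, minus strand, and its 250 bases have a GC content of 38.8% and 0 CpG. The capitals in the second sequence mark the match to TCAAGGNCA. Both are from RefSeq, assembly GRCm38.p6.
Kmt2e region: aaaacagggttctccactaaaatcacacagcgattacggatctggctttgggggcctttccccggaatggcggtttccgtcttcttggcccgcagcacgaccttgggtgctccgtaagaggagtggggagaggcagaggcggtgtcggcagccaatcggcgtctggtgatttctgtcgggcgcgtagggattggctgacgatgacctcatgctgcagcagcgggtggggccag
Riox2 region: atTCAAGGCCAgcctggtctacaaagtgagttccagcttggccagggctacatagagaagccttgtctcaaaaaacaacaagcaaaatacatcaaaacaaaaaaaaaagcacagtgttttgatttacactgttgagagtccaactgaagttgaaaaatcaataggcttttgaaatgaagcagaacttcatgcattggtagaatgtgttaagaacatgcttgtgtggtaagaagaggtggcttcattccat

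The authors moved the summit of a bound region onto a motif where they found one. In the Riox2 region their recentred summit, 59469479, fell inside the match at 59469478 to 59469486. At Phf8, also of the wider list, the summit was moved to 151520542. The stretch searched there, 151520435 to 151520642, held neither TCAAGGNCA nor CAAGGNCA, so the authors' motif is not limited to the strings searched. In the Kmt2e region the summit was left where it was. The Kmt2e region read 11.2 RPKM in heterozygotes and 10.4 in maternal-zygotic knockouts, then 4.41 untreated and 4.42 treated. The ratio of knockout to heterozygote was 0.932 (95% interval 0.505 to 1.76) and that of treated to untreated was 1.00 (0.563 to 1.79), so neither series showed a difference there beyond counting error. The Riox2 region was not accessible by the authors' annotation and read 0.587, 0.00, 1.14 and 1.36 RPKM in the same order, at or under the limit for a count of 0 in the first series. TCAAGGNCA occurred in 532 of 32851 promoter windows (1.62%) and in 0 of the 69 windows listed for 47 of the chromatin regulator genes. The looser CAAGGNCA, which includes every match of the longer form, occurred in 2204 windows (6.71%) and in 2 of those 69.

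By position, 79 of the 131 regions (60.3%) lay inside the span of their gene. Over all regions, assigned to their nearest gene at any distance, 50.9% did. Among all regions within 50 kb, the limit used here, 8639 lay inside a gene and 6784 outside. In the wider list of chromatin genes, with the same limit, 62.9% lay inside. For 104 of the 131 regions the gene had a start in the promoter table. Of these, 3 lay within 1 kb of a start, 15 within 5 kb and 27 within 10 kb, with a median distance of 22.7 kb. The authors' recentred summit differed from the original summit in 119 regions (90.8%), against 89.3% of all regions. These are taken as regions with a summit moved onto a motif. A summit that already lay on a motif would not be counted. The 131 regions were like the rest of the table in binding and openness as well. NR5A2 signal by CUT&RUN, a nuclease-based binding assay from an earlier study, had a median of 4.46 RPKM (range 1.32 to 20.6) against 4.15 over all regions, and 63 regions (48.1%) were accessible by the authors' annotation, against 48.5%.

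Bound regions were spread unevenly over the genes. Jarid2, an accessory subunit of Polycomb repressive complex 2, had the most, with 8. Chd7, a chromodomain remodeller, Suz12, a core Polycomb subunit, and Ep300, a histone acetyltransferase, had 6 each. Tet1, Kdm3b, Setd2, Kdm4c and Arid1a had 5 each, and 16 genes had 1. No region fell within the rule at 11 genes, which were Kdm1a, Kmt2a, Kmt2d, Setd1b, Suv39h2, Trim28, Hdac3, Hdac7, Kat2a, Smarca2 and Dnmt3l. A further 17 regions had one of the 59 genes as their nearest gene but lay beyond 50 kb. Just inside the limit were a Jarid2 region at 46.0 kb, with 9.40, 4.30, 2.45 and 1.19 RPKM in heterozygous, maternal-zygotic knockout, untreated and treated columns, and an Ep300 region at 40.3 kb, with 0.587, 2.15, 0.816 and 0.510 RPKM. Just outside were an Ep300 region at 51.4 kb, with 1.76, 2.51, 3.26 and 1.19 RPKM, and a Jarid2 region at 52.6 kb, with 13.5, 12.2, 5.71 and 5.96 RPKM.

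Accessibility over the chromatin regulator loci was lower in the knockout column of both series, and in the inducible series by less than over the table as a whole. The RPKM summed over the 131 regions in maternal-zygotic knockouts was 0.728 times that in heterozygotes (95% interval 0.662 to 0.801), against 0.668 over all listed regions. In the inducible series it was 0.779 times that of the untreated pool (0.731 to 0.830), against 0.694. The all-region value lay inside this interval in the first series and below it in the second. The median log2 ratio, with 1 RPKM added to each value, was -0.34 against -0.32 for all regions in the first series and -0.22 against -0.35 in the second. The direction is that of the columns as deposited. When the ratio of sums over all regions was set to 1, the ratio over the 131 regions was 1.09 and 1.12, and when the median log2 ratio of all regions was set to 0 it was 0.909 and 0.993. Whether the ratio over these loci lies above or below 1 therefore turns on the scaling. Their standing beside all regions in the sums does not, because a scaling multiplies both by the same factor. In the first series that standing turns on the measure. The ratio of sums was above that of all regions, and the median log2 ratio was slightly below theirs.

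**Figure D1:**
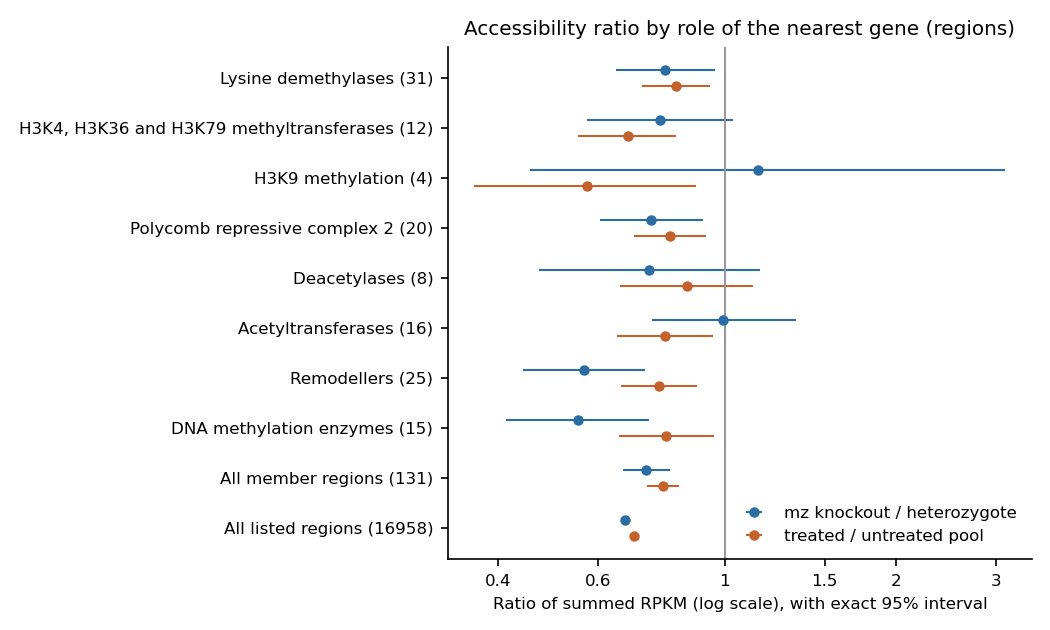
Ratio of summed RPKM, knockout over control, on a log axis for each role group of chromatin regulators and for all listed regions. Points are ratios and bars are 95% intervals of counting error, with the maternal-zygotic and inducible series side by side. All role groups but H3K9 methylation lie below 1 in both series, and the Acetyltransferases at 0.994 in the maternal-zygotic series lie closest to it. The ratios of all listed regions were 0.668 and 0.694. Only the intervals of the Acetyltransferases in the maternal-zygotic series and the Lysine demethylases in the inducible series exclude them.

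Counted region by region, 88 of the 131 (67.2%) read lower in maternal-zygotic knockouts, 42 read higher and 1 was equal, where 64.3% of all regions read lower and 32.0% higher. Between the pools 94 (71.8%) read lower in the treated one and 37 higher, where the shares of all regions were 74.4% and 25.2%. A reading lower by 1.5-fold or more was seen in 63 regions (48.1%) in the first series, against 49.2% of all regions, and in 48 regions (36.6%) in the second, against 48.6%. A higher reading of that size was seen in 22 regions (16.8%), against 20.3%, and in 8 regions (6.11%), against 8.57%. The share of regions past 1.5-fold was thus near the background in the first series and under it for lower readings in the second. Lower readings in both series were found at 65 regions (49.6%), where 50.5% of all regions did so.

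Few single regions passed the exact two-sided binomial test with Benjamini-Hochberg adjustment over all 16958 regions. In the maternal-zygotic series 0 of the 131 were called, where 1.73% of all regions were called lower and 0.0236% higher, and the smallest adjusted p was 0.101. At an unadjusted p under 0.05 there were 17 (12.98%), against 12.6% of all regions. Between the pools 2 were called lower, where 6.37% of all regions were, and 1 was called higher, where 0.0767% were. Depth limits such calls over the whole table, and the share of regions with enough reads was not lower here. A complete loss could be called in the first series only from 8 heterozygote reads, which 35 of the 131 regions and 26.7% of all regions had, and a 2-fold loss only from 53 reads, which none had. Between the pools a complete loss needed 10 untreated reads, which 96 of the 131 and 69.1% of all regions had, and a 2-fold loss needed 55, which 2 regions had.

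The 3 called regions lie at genes of different function. Ehmt1 encodes an H3K9 methyltransferase also known as GLP. Its region at chromosome 2, 24805605 to 24805940, inside the gene, read 2.35 RPKM in heterozygotes, 1.43 in maternal-zygotic knockouts, 5.88 untreated and 1.70 treated. The highest reading was in the untreated pool, though levels were not tested across the 2 series. The inducible ratio was 0.290 (0.128 to 0.596, adjusted p = 0.00931, exact binomial test), from 36 reads to 10, and the maternal-zygotic ratio was 0.611 (adjusted p = 0.963) from 4 reads in each column.

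Smarca5 encodes SNF2H, the ATPase of ISWI nucleosome-spacing remodellers. Its region at chromosome 8, 80750557 to 80751139, lay 11.4 kb before the gene start and read 8.22, 5.38, 5.22 and 1.53 RPKM in heterozygous, maternal-zygotic knockout, untreated and treated columns. It was lower in the knockout column of each series. The inducible ratio was 0.293 (0.123 to 0.629, adjusted p = 0.0170, exact binomial test) and the maternal-zygotic ratio 0.654 (adjusted p = 0.782).

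Kdm5a encodes an H3K4 demethylase, and its region at chromosome 6, 120376688 to 120377313, inside the gene, went the other way in the inducible series. It read 3.52, 2.87, 0.816 and 3.91 RPKM in the same order, with the lowest reading in the untreated pool, at 5 reads. Whether that level differs from those of the other series was not tested. The inducible ratio was 4.80 (1.78 to 16.1, adjusted p = 0.0161, exact binomial test) and the maternal-zygotic ratio 0.814 (adjusted p = 1.00). Scaling the columns to all regions raises every knockout value by the same factor, so it weakens lower calls and strengthens higher ones by construction. With the median log2 ratio of all regions set to 0, the adjusted p was 0.130 at Ehmt1 (ratio 0.369), 0.156 at Smarca5 (0.374) and 0.0107 at Kdm5a (6.11). With the ratio of sums set to 1, it was 0.219 at Ehmt1 (0.417), 0.301 at Smarca5 (0.423) and 0.00947 at Kdm5a (6.91), so the lower calls ended under both scalings. The ratio itself, tested between the series, differed at 0 of the 131 regions (smallest adjusted p = 0.991, exact conditional test), where 0.0177% of all regions were called, so none of the 3 is shown to respond differently in the 2 series.

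**Figure D2:**
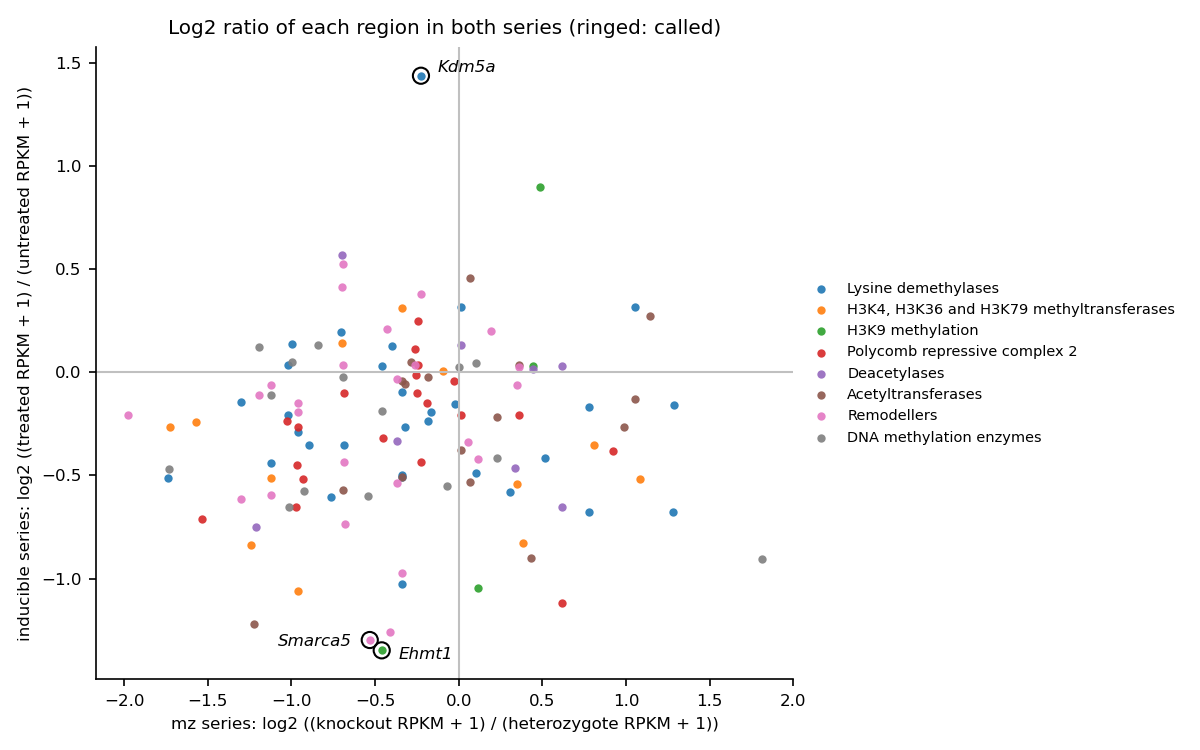
Log2 ratio of each of the 131 regions, with 1 RPKM added, in the maternal-zygotic series (horizontal axis) against the inducible series (vertical axis), coloured by role group. Ehmt1, Smarca5 and Kdm5a, the called regions, are ringed, and 65 regions lie in the quadrant that is lower in both series.

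The authors sorted every region into Down, Unchanged or Up, and the deposited classes follow from the mean of both deposited ratios with limits at 0.667 and 1.5 in all 16958 regions. Of the 131 regions 45 (34.4%) were Down, against 41.5% of all regions, 71 (54.2%) were Unchanged, against 41.6%, and 15 (11.5%) were Up, against 16.9%. Among the 63 accessible regions 18 (28.6%) were Down, 41 (65.1%) Unchanged and 4 (6.35%) Up, where the shares among all accessible regions were 46.3%, 46.1% and 7.52%. The Up class rests on very few reads. Of the 15 Up regions 8 had 0 reads in the heterozygote column and 4 had 1, and 11 were not accessible. Most Up regions elsewhere were not accessible either, at 2254 of the 2873 among all listed regions. An example is the Dnmt3a region at chromosome 12, 3859291 to 3859467, with 0.00, 2.51, 3.43 and 1.36 RPKM, whose ratio in the authors' deposited table is 252 for the maternal-zygotic series. The same region read lower in the treated pool, at a ratio of 0.397.

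Lysine demethylases remove methyl groups from histone tails, and 11 of the 12 genes had a region, 31 in all. Mean RPKM over these regions was 3.35 in heterozygotes, 2.64 in maternal-zygotic knockouts, 2.47 untreated and 2.03 treated. The ratios of sums were 0.786 (0.643 to 0.963) and 0.821 (0.714 to 0.943). Lower readings were seen in 22 (71.0%) and 23 (74.2%) of the 31 regions, against 64.3% and 74.4% of all regions. The region with the most reads, at Kdm4b, a demethylase of H3K9 and H3K36, lay 0.0455 kb outside the gene span at chromosome 17, 56325820 to 56326029. It read 11.7, 17.2, 8.98 and 6.47 RPKM, higher in the maternal-zygotic knockout than in heterozygotes and lower in the treated than in the untreated pool. The ratios were 1.47 (0.853 to 2.61) and 0.720 (0.463 to 1.11), and both intervals included 1.

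Among the other demethylase loci the direction varied. The Kdm2b region at chromosome 5, 122913109 to 122913541, near a gene whose product binds CpG islands and removes methyl groups from H3K36, had a CUT&RUN signal of 12.5 RPKM. It read 11.7, 5.38, 4.41 and 4.93 RPKM, with ratios of 0.458 and 1.12. The single region of Kdm6b, an H3K27 demethylase gene, read 14.1, 7.89, 4.41 and 2.55 RPKM, lower in both knockout columns at ratios of 0.560 (0.299 to 1.04) and 0.579 (0.286 to 1.13), both intervals reaching above 1. Kdm3b, a demethylase of H3K9, had a region with a CUT&RUN signal of 12.4 RPKM at chromosome 18, 34807224 to 34807937, which read 2.35, 0.359, 1.80 and 1.53 RPKM. The Kdm3b region with the most reads, at 34782452 to 34782872, read 8.81, 11.1, 6.86 and 4.25 RPKM, higher in the maternal-zygotic knockout at a ratio of 1.26 (0.661 to 2.52). Over its 5 regions the Kdm3b ratio was 0.855 (0.522 to 1.41) in the first series and 0.717 (0.516 to 0.991) in the second. Over the 5 regions of Kdm4c it was 0.611 (0.228 to 1.63) and 0.782 (0.493 to 1.23).

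The H3K4 demethylase gene Kdm5b had 4 regions, with ratios of 0.656 (0.375 to 1.15) and 0.948 (0.657 to 1.37). The one with the most reads, at chromosome 1, 134563790 to 134564056, 3.75 kb into the gene, read 8.81, 5.02, 5.39 and 6.30 RPKM, lower in the maternal-zygotic knockout and higher in the treated pool. The ratios of that Kdm5b region were 0.570 (0.255 to 1.27) and 1.17 (0.711 to 1.93), and both intervals included 1. Kdm5a, its paralogue, had 4 regions with ratios of 1.05 (0.477 to 2.45) and 1.42 (0.868 to 2.36). Kdm3a, an H3K9 demethylase gene, had 2 regions, with 2.94, 3.23, 3.26 and 2.04 RPKM before the gene and 3.52, 0.359, 2.12 and 1.19 RPKM inside it. The regions of Kdm2a, Kdm4a and Kdm1b held few reads, and each had at least 1 column of the first series at or under the limit for a count of 0.

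The group of H3K4, H3K36 and H3K79 methyltransferases, which place marks of active promoters, enhancers and transcribed bodies, had regions at 5 of 8 genes, 12 in all. Mean RPKM was 4.16, 3.20, 3.55 and 2.40 in the same column order, with ratios of 0.769 (0.573 to 1.03) and 0.675 (0.553 to 0.822). The interval of the inducible ratio lay below 1 and that of the first series reached above it. Setd2, the enzyme that trimethylates H3K36, had 5 regions. Its region with the most reads, at chromosome 9, 110617101 to 110617265, read 4.70, 8.97, 7.02 and 5.28 RPKM, higher in the maternal-zygotic knockout. The maternal-zygotic ratio there was 1.91 (0.834 to 4.89), an interval that included 1. Another, at 110580869 to 110581243, read 7.05, 1.43, 3.26 and 2.55 RPKM, and its maternal-zygotic ratio of 0.204 (0.0478 to 0.671) had an adjusted p of 0.101 (exact binomial test), the smallest of the 131 regions in that series.

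Kmt2c, an enhancer-type H3K4 methyltransferase gene, had 2 regions, and both read lower in both series. The one inside the gene read 6.46, 2.15, 4.73 and 2.21 RPKM, and over both regions the ratios were 0.323 (0.127 to 0.767) and 0.510 (0.291 to 0.867). Dot1l, the H3K79 methyltransferase gene, had a region that read 2.35, 6.10, 7.02 and 4.59 RPKM, higher in the maternal-zygotic knockout and lower in the treated pool. The Dot1l ratios were 2.59 (0.846 to 10.6) and 0.655 (0.389 to 1.08), and both intervals included 1.

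H3K9 methylation genes, which act in heterochromatin and silencing, had 4 regions at 3 of 5 genes. Their mean RPKM of 1.17, 1.34, 2.45 and 1.40 was the lowest of the 8 role groups in heterozygotes, and the maternal-zygotic ratio of 1.14 had a wide interval (0.456 to 3.12). The inducible ratio was 0.573 (0.363 to 0.891), and the Ehmt1 region described above held more of these reads than any other. The single Ehmt2 region read 1.76, 2.87, 0.816 and 2.38 RPKM, with an inducible ratio of 2.92 (0.994 to 10.4). Its heterozygote column was at the limit that a count of 0 allows, so no direction is read from the first series.

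Polycomb repressive complex 2, which trimethylates H3K27, had regions at all 4 genes, 20 in total. None was in the Up class, against 16.9% of all regions. Mean RPKM was 5.02, 3.73, 3.51 and 2.82, and the ratios were 0.743 (0.604 to 0.915) and 0.803 (0.693 to 0.928). Lower readings were seen in 16 (80%) and 17 regions (85%), against 64.3% and 74.4% of all regions. Eed, the subunit that binds H3K27 trimethylation, had the region with the most reads, at chromosome 7, 89949525 to 89949941, 4.92 kb outside the span. It read 16.4, 13.6, 9.30 and 9.19 RPKM, with ratios of 0.829 and 0.988, so the difference was small in both series. The ratios over the 3 Eed regions were 0.857 (0.581 to 1.27) and 0.939 (0.700 to 1.26).

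The 8 regions of Jarid2 gave ratios of 0.643 (0.464 to 0.892) and 0.763 (0.593 to 0.980). A pair of neighbouring regions before the gene read 5.87, 5.74, 4.24 and 4.08 RPKM in one and 7.05, 3.23, 4.57 and 2.89 RPKM in the other. The intervals of their ratios overlapped, at 0.977 (0.417 to 2.41) and 0.458 (0.170 to 1.18) in the first series. Suz12 had 6 regions with ratios of 0.750 and 0.841. The catalytic subunit gene Ezh2 had 3, with ratios of 0.892 (0.418 to 1.97) and 0.585 (0.367 to 0.918).

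Deacetylases, which remove acetyl groups and act in co-repressor complexes, had 8 regions at 6 of 8 genes. Mean RPKM was 2.86, 2.11, 2.53 and 2.17, and the ratios were 0.736 (0.471 to 1.16) and 0.858 (0.653 to 1.12), both intervals reaching above 1. The median log2 ratio in the first series was 0.18, the opposite sign to the ratio of sums, as 5 of the 8 regions, with few reads, read higher. Hdac2, a class I enzyme, had the second highest CUT&RUN signal of the 131 regions, 15.9 RPKM, at chromosome 10, 37005599 to 37005823. Its ATAC-seq signal was 5.29, 2.87, 3.92 and 6.30 RPKM, lower in the maternal-zygotic knockout and higher in the treated pool. The Hdac2 ratios were 0.543 (0.182 to 1.58) and 1.61 (0.936 to 2.81), and both intervals included 1. Hdac4, a class IIa enzyme, had a region with 8.81, 3.23, 4.41 and 2.21 RPKM, lower in both knockout columns. Over its 3 regions the Hdac4 ratios were 0.611 (0.336 to 1.11) and 0.613 (0.404 to 0.919). Hdac1, Hdac5, Hdac9 and the NAD-dependent deacetylase gene Sirt1 had 1 region each, none accessible. These regions read 1.76 RPKM or less in heterozygotes, no more than a count of 0 allows, so no direction is read from their maternal-zygotic ratios.

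Acetyltransferases, which place marks of active chromatin, had 16 regions at 5 of 6 genes and no difference in the first series beyond counting error. Mean RPKM was 2.86 in heterozygotes and 2.85 in maternal-zygotic knockouts, a ratio of 0.994 (0.744 to 1.34), against 0.668 over all listed regions. In the wider list the 33 regions of this role gave 0.653 (0.536 to 0.796). Of the 16 regions 7 (43.8%) read lower, against 64.3% of all regions. Between the pools the means were 2.53 and 1.99, a ratio of 0.786 (0.647 to 0.954), with 12 regions (75%) reading lower, against 74.4% of all regions. Kat6b, a MYST-family enzyme gene, had the region with the most reads, at chromosome 14, 21474670 to 21474962, 24.4 kb outside the span. It read 10.6, 11.1, 7.34 and 4.76 RPKM, alike in the first series and lower in the treated pool at 0.649. The 6 regions of Ep300 gave ratios of 1.63 (0.816 to 3.47) and 1.02. The first rests on 12 heterozygote reads in all. Their median of 2 per region is under the 3 reads that a count of 0 allows. Its paralogue Crebbp had 2 regions with ratios of 0.773 (0.372 to 1.64) and 1.02 (0.657 to 1.58), the larger of which read 7.64, 6.10, 5.39 and 5.62 RPKM. Kat2b, a GCN5-family enzyme gene, had 3 regions. The one inside the gene read 4.70, 1.43, 2.12 and 0.340 RPKM, lower in both knockout columns, while one before the gene read 3.52, 4.30, 3.92 and 3.23 RPKM.

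Remodellers, the ATPases and subunits that move or evict nucleosomes, had 25 regions at 8 of 9 genes. None of them was in the Up class, which held 16.9% of all regions and 13.9% of the 79 remodeller regions in the wider list. None had 0 heterozygote reads either. Outside this group and Polycomb repressive complex 2, the Up share ran from 6.67% (DNA methylation enzymes) to 50% (H3K9 methylation, 2 of 4 regions). Mean RPKM was 3.27, 1.85, 2.59 and 1.99, with ratios of 0.567 (0.442 to 0.725) and 0.767 (0.657 to 0.894). The region of Arid1b, a subunit of BAF complexes, had the highest CUT&RUN signal of the 131, 20.6 RPKM, rank 34 of all listed regions. It lay at chromosome 17, 4984589 to 4984949, 9.53 kb outside the span, and read 13.5, 6.46, 7.67 and 6.81 RPKM. Its ratios were 0.478 (0.243 to 0.925) and 0.887, and it was not called in either series.

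The 6 regions of Chd7 were low in reads and gave ratios of 0.392 (0.150 to 0.974) and 0.548 (0.366 to 0.810). Of these, the region at chromosome 4, 8794600 to 8794913, had 0.00 RPKM in maternal-zygotic knockouts against 2.94 in heterozygotes, that is 0 reads against 5. The 2 regions of Chd4, the NuRD ATPase gene, gave 0.244 (0.0559 to 0.847) and 0.667, and the 3 of Smarca4, the BAF ATPase gene, gave 0.349 (0.127 to 0.891) and 0.749. The 5 regions of Arid1a were closer to 1, at 0.695 and 0.940. Smarcc1, a core BAF subunit gene, had 3 regions at 1.02 (0.417 to 2.64) and 1.27 (0.705 to 2.31), and Chd1, a remodeller gene of transcribed chromatin, had 2 at 0.475 (0.150 to 1.43) and 0.912 (0.563 to 1.47). Over all 3 regions of Smarca5, including the called one, the ratios were 0.687 (0.382 to 1.24) and 0.529 (0.344 to 0.800).

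DNA methylation enzymes, which add or oxidise 5-methylcytosine, had 15 regions at 6 of 7 genes. Mean RPKM was 4.07, 2.25, 2.74 and 2.17. The maternal-zygotic ratio was the lowest of the 8 role groups, 0.552 (0.413 to 0.736), and the inducible ratio was 0.790 (0.651 to 0.957). Both intervals included the ratios of all listed regions, 0.668 and 0.694. In the wider list the 4 regions of this role gave 0.733 (0.290 to 1.89) in the first series. The difference between groups or between series in these sums was not tested. Tet1, a 5-methylcytosine dioxygenase gene, had 2 regions that read differently in the 2 series. Its region at chromosome 10, 62900306 to 62900545, outside the span, read 11.7, 5.38, 5.71 and 5.96 RPKM, and a neighbour at 62898319 to 62898686 read 7.05, 2.51, 5.71 and 6.30 RPKM. Both were lower in maternal-zygotic knockouts and nearly level between the pools, a difference between the series that was not called. Over the 5 regions the Tet1 ratios were 0.532 (0.326 to 0.865) and 1.00 (0.754 to 1.33).

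Dnmt3a and Dnmt3b encode de novo DNA methyltransferases. Over its 4 regions Dnmt3a gave 0.589 (0.338 to 1.03) and 0.599 (0.414 to 0.858), and its region at chromosome 12, 3794266 to 3794473, read 11.2, 5.02, 5.39 and 3.06 RPKM. Dnmt3b had a region with the third highest CUT&RUN signal of the 131 at chromosome 2, 153708731 to 153708890, which read 3.52, 4.30, 1.47 and 0.851 RPKM. Over its 2 regions Dnmt3b gave 0.892 (0.418 to 1.97) and 0.559 (0.277 to 1.08), both intervals reaching above 1. The 2 regions of Tet2 gave 0.323 (0.127 to 0.767) and 0.834, and the single regions of Dnmt1 and Tet3 held too few reads to separate the columns.

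**Figure D3:**
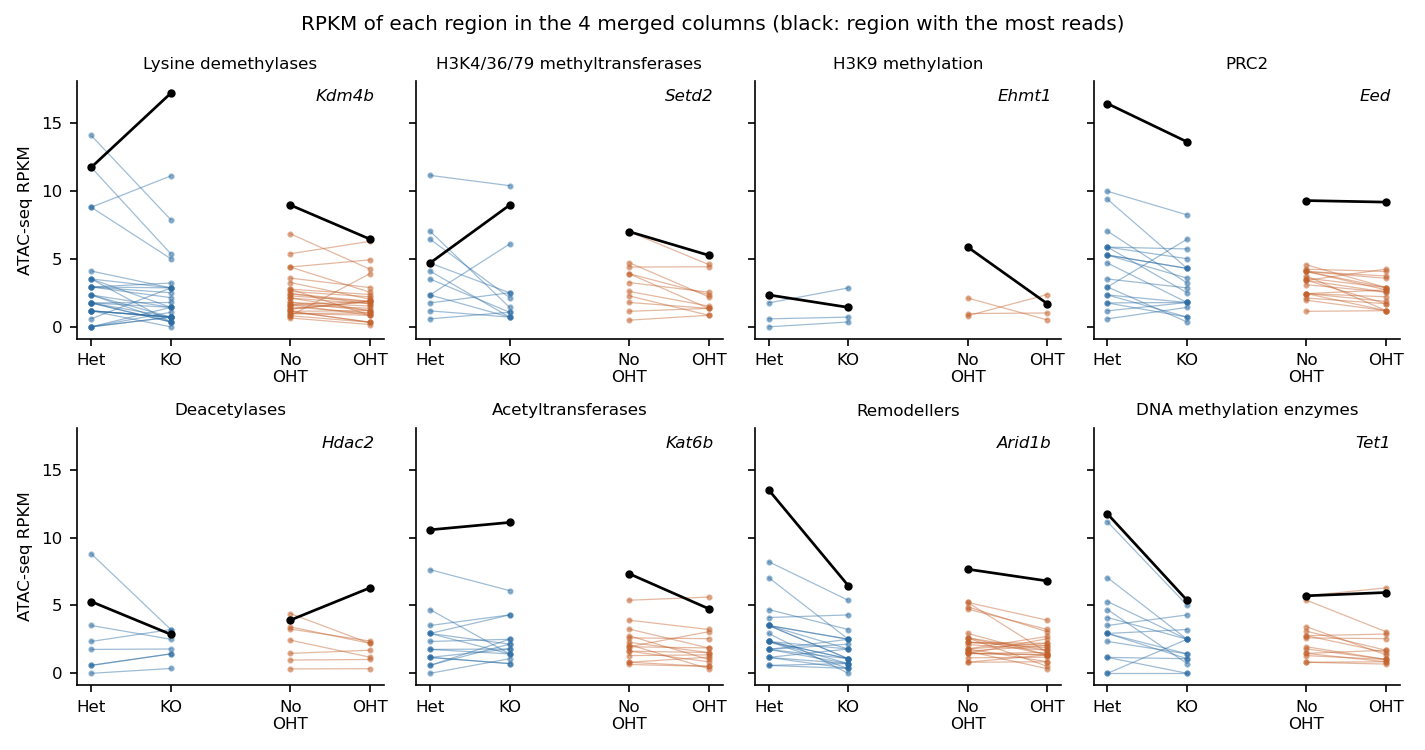
RPKM in the heterozygous, maternal-zygotic knockout, untreated and treated columns for each region, in a panel per role group. Coloured lines join the values of a region within each series, and the black lines are the region with the most reads, such as Eed at 16.4, 13.6, 9.30 and 9.19 RPKM and Tet1 at 11.7, 5.38, 5.71 and 5.96 RPKM.

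Gene by gene, the ratio of sums was below 1 at 35 of the 48 genes in the maternal-zygotic series, at 36 in the inducible series and at 30 in both, and above 1 in both at 7. The 95% interval, not adjusted for the number of genes, lay wholly below 1 at 9 genes in the first series and at 12 in the second, and at 3 genes in both, which were Kmt2c, Jarid2 and Chd7. At no gene did it lie wholly above 1. Set against the ratio of all listed regions instead of 1, the interval lay wholly below at 0 genes in either series. It lay wholly above at 3 genes in the first series, Kdm4b, Dot1l and Ep300, with 21, 4 and 12 heterozygote reads. In the second it lay wholly above at 7, Kdm2b, Kdm5a, Ehmt2, Eed, Hdac2, Smarcc1 and Tet1. Whether a gene differed between the series was not tested at the level of these sums. No share over the other genes of the table stands beside these gene counts, so whether they stand out was not tested.

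**Figure D4:**
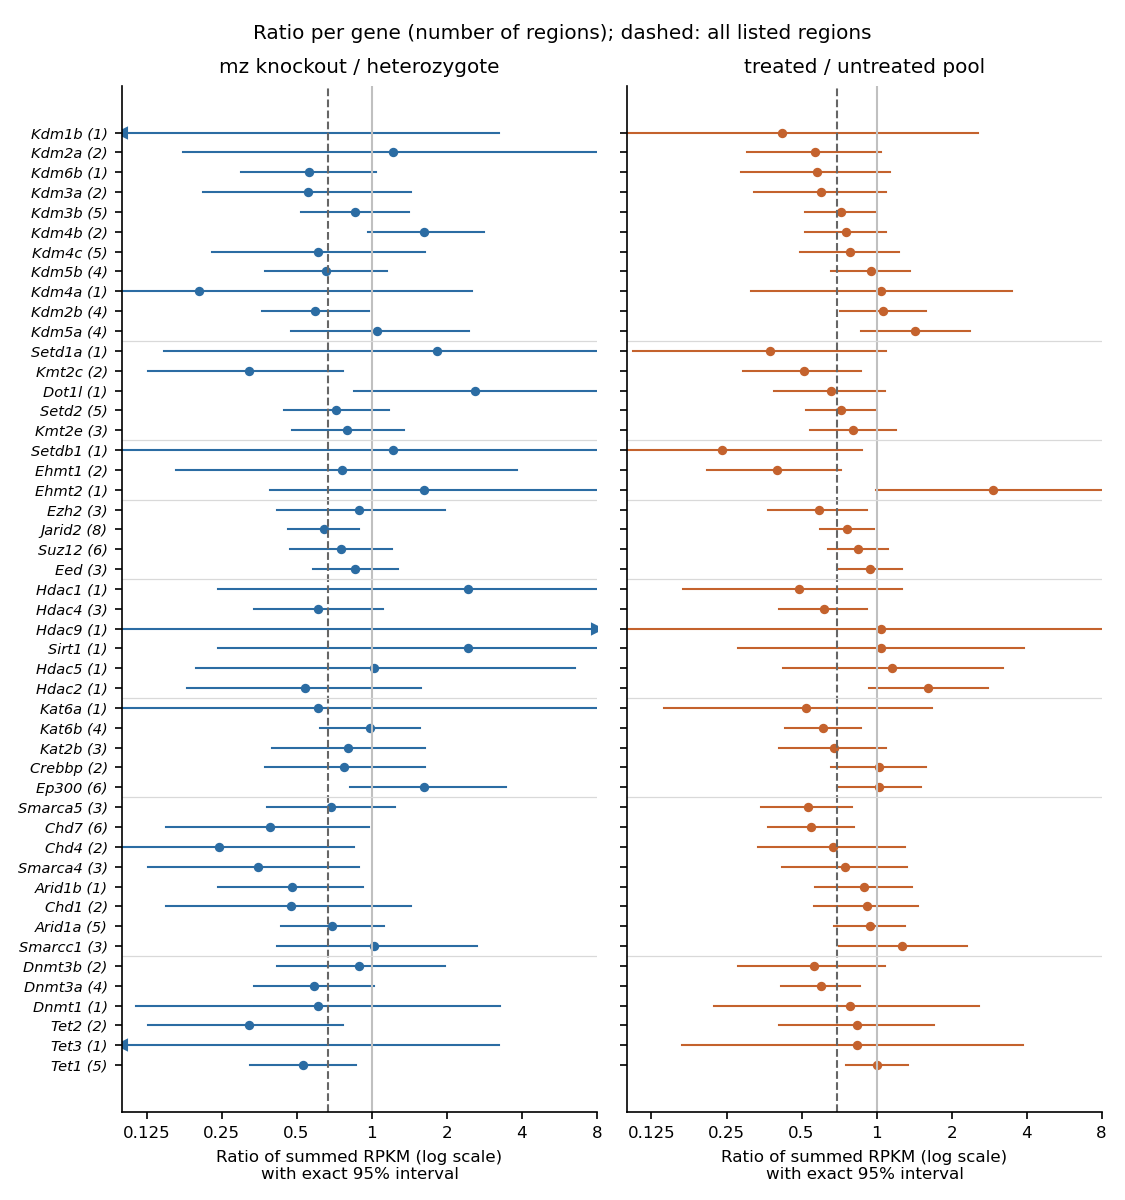
Ratio of summed RPKM for each of the 48 genes with a region in both series, with 95% intervals of counting error on a log axis, and dashed lines at the ratio of all listed regions (0.668 and 0.694). Arrowheads mark ratios off the axis, at 0 for Kdm1b and Tet3 and without limit for Hdac9, whose heterozygote column held 0 reads.

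The ratios were also taken over subsets of the regions by position, binding, openness and motif. The position split uses the distance by which regions were assigned, and the others do not. Regions inside gene spans gave 0.724 and 0.781 and those outside gave 0.733 (0.636 to 0.845) and 0.777 (0.706 to 0.854). Regions at or above the median CUT&RUN signal gave 0.715 and 0.778, and those below it 0.745 and 0.780. Accessible regions gave 0.737 (0.659 to 0.825) and 0.788 (0.727 to 0.852), where all accessible regions gave 0.650 and 0.692. In the first series the 119 regions with a summit moved onto a motif gave 0.693 (0.626 to 0.768). The 12 with the summit left in place gave 1.00 (0.767 to 1.32). These 12 held 90 heterozygote and 148 knockout reads, of which 1 Kdm4b region held 20 and 48. By count, 8 of the 12 (66.7%) read lower, against 67.2% of the 119. Between the pools the ratios were 0.782 for moved and 0.756 (0.620 to 0.920) for unmoved summits, so regions with a moved summit were not lower there. Over all listed regions those with a moved summit were lower in both, at 0.658 against 0.723 and at 0.679 against 0.790.

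A wider list of 156 other chromatin genes, of which 155 were found in the gene table, had 264 regions with ratios of 0.678 (0.635 to 0.725) and 0.703 (0.671 to 0.736). In the maternal-zygotic series 3 of its regions (1.14%) were called lower by the exact binomial test, under the 1.73% of all regions, and 0 higher. Among them were regions at Ash1l, an H3K36 methyltransferase gene (12.3 to 1.43 RPKM, adjusted p = 0.00195), and Brd1, a subunit gene of acetyltransferase complexes (22.9 to 9.32 RPKM, adjusted p = 0.0346). In the inducible series 15 (5.68%) were called lower, under the 6.37% of all regions, and 0 higher. Among the 15 were regions at Kdm5c, Kdm8, Smyd2, Smyd3 (2 regions), Aebp2, Rbbp7 (2 regions), Brd9, Tada2a (2 regions), Mta3, Smarcd1 and Zbtb33. The Kdm8 region, at a JmjC-domain gene, read 5.88 RPKM untreated and 0.851 treated (adjusted p = 0.000366, exact binomial test).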

How the data were processed

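Per the file headers and labels, the authors deposited for each NR5A2-bound region (mm10) ATAC-seq RPKM in 4 merged columns, CUT&RUN RPKM and the ratio of knockout to control, which equals (knockout + 0.01)/(control + 0.01). Per the submitters' processing notes cutadapt, Bowtie2 and MACS2 were used. Versions, the shift of transposase insertions and the treatment of duplicates are not given in the sources used here.

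Every RPKM value was a whole multiple of 1 step per column (tolerance 0.0001 of a step), so reads were recovered from the deposited RPKM. Each region was compared by an exact two-sided binomial test and called at an adjusted p of 0.05 (Benjamini-Hochberg, all 16958 regions). The 95% intervals of ratios of sums are Clopper-Pearson intervals conditional on the total. Log2 ratios had 1 RPKM added. The ratios of the 2 series were compared by an exact conditional test. Scripts ran in Python 3.11.15 with scipy 1.17.1 and were tested on simulated data.

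Regions were joined to RefSeq spans (GRCm38.p6). The genes and lists were chosen with earlier results of these data known. Named by rule were called regions, the region with the most reads per role group, the genes with the most regions (5 asked for, 9 with ties at 5 regions), the 5 highest CUT&RUN signals, regions over the promoter of their gene, those nearest the 50 kb limit and called regions of the wider list. A called gene of the wider list is not reported here. Other genes named were chosen after their values were seen. Alternatives were other scalings, a 10 kb limit, a minimum of 10 reads, accessible regions only, a pseudocount of 0.1 and leaving out 1 gene.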

Additional observations from a re-analysis of the deposited data

How the results depend on the processing

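The direction of the sums and medians depends on the scaling of the columns. With each series scaled to a median log2 ratio of 0 over all regions (shifts of -0.32 and -0.35), the ratio over the chromatin regulator regions was 0.909 in the maternal-zygotic series and 0.993 in the inducible series, the median log2 ratios were -0.13 and 0.022, and 0 regions were called lower in the inducible series by the exact binomial test. With the sums over all regions set equal, the ratios were 1.09 and 1.12, the medians 0.032 and 0.13, and again 0 regions were called lower. The Kdm5a region's maternal-zygotic ratio passed above 1 under both scalings, to 1.02 and 1.22, with an adjusted p of 1 in each. Within 10 kb of a gene, 1 region was called lower in the inducible series, and with accessible regions only there were 3, against 2. With 0.1 RPKM added in place of 1, the median log2 ratio of the maternal-zygotic series was -0.50. Without Jarid2, which holds the most reads, the ratios were 0.737 and 0.780. No paired analysis was possible because each column merges the embryos of its group, and leaving out embryos was not run for the same reason. The 3 calls rest on 5 to 36 reads per column.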
